A study of Mus musculus with 12 samples.

Results

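Muc5ac, Muc5b, Clca1, Tff2, Fcgbp, Slc26a4, Agr2, Spdef and Foxa3, 9 genes that encode the mucus of airway goblet cells or the machinery that makes it, were followed in whole lung of mice with models of asthma. The genes were taken from a list by name, and each was read from the probe set that carried its symbol alone. Of the 9 genes, 8 had such a probe set, 1 each, among 19937 genes measured in this way. Fcgbp, whose product is a secreted partner of mucins, was annotated only on probe sets shared with other genes and was not tested. All 12 mice were Balb/c animals without a stated genetic change, 1 Affymetrix mouse Gene 1.0 ST array was hybridised for each, and the labels used here give no age or sex. The labels placed the mice in 4 groups of 3. Control mice were given PBS through the nose. Eosinophilic mice had house dust mite (HDM) extract with 0.75 DU, development units, each of Der f and Der p bound to 1.5 mg of aluminium hydroxide, injected into the peritoneum on days 0, 7 and 21, and a similar dose through the nose on days 26 to 28. Mixed mice were exposed to 0.75 DU of each allergen through the nose only, in 4 weekly applications, and neutrophilic mice to 7.5 DU of each on that schedule. The eosinophilic group therefore differed from the others in route, adjuvant and schedule together, and no group had alum or injections without HDM. The study was set up to compare the epithelial barrier, mucins and the inflammasome across these models.

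Airway mucus is a gel of long, heavily glycosylated mucins. Muc5b is the mucin of healthy mouse airways and is needed for clearance, whereas Muc5ac is made in quantity when secretory cells turn into goblet cells, typically under the type 2 cytokine IL-13 acting through STAT6. The transcription factors Spdef and Foxa3 can drive that change, and Agr2 is a disulfide isomerase of the endoplasmic reticulum that mucin production depends on. Clca1, also called gob5, is a secreted metalloprotease of mucus, Tff2 is a trefoil peptide secreted with mucins, and Slc26a4 (pendrin) is an apical exchanger of chloride for bicarbonate and other anions.

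Promoter windows from RefSeq on GRCm38.p6, each from 250 bases before to 50 bases after a start of the gene, were at hand for Slc26a4, Agr2, Spdef, Foxa3 and Fcgbp, 5 of the 9 genes. Those of Slc26a4, Agr2, Spdef and Foxa3 are shown 5′ to 3′ on the gene's own strand, with motif matches in capitals. Slc26a4 is at chr12:31559935-31560234 on the minus strand, Agr2 at chr12:35992675-35992974 on the plus strand, Spdef at chr17:27728902-27729201 and Foxa3 at chr7:19023490-19023789, both on the minus strand.
Slc26a4: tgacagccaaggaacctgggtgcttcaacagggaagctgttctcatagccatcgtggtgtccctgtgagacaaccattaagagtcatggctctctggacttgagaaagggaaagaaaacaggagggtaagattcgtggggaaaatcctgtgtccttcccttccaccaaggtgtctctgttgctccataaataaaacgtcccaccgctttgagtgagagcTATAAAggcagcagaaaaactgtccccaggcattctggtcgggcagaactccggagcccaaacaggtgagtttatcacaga
Agr2: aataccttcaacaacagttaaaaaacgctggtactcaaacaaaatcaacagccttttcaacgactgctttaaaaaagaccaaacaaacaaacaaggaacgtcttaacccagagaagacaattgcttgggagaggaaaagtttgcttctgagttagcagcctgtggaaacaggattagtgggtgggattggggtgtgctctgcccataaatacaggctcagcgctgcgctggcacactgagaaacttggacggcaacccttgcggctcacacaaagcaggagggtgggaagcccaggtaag
Spdef: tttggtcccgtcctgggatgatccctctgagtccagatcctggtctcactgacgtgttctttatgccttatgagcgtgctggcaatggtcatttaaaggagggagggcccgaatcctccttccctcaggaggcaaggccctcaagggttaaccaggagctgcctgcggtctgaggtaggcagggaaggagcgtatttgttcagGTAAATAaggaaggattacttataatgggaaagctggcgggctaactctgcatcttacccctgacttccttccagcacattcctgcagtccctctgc
Foxa3: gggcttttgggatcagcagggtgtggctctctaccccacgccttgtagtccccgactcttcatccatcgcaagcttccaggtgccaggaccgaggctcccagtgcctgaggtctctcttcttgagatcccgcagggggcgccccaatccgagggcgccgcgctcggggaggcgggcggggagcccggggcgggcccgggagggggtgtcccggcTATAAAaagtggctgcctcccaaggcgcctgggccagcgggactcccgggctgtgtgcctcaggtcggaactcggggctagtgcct
The letters searched on both strands were TTC followed after any 4 bases by GAA for STAT6, CCGGAT for SPDEF, and TATAAA for a TATA box. For forkhead factors such as Foxa3 the letters were TATTTAC (in 3.04% of all windows), or TGTTTAC (3.65%), or TATTTGC (2.76%), or else TGTTTGC (5.07%). TATAAA was found 31 to 26 bases before the start of Slc26a4 and 36 to 31 bases before that of Foxa3. A forkhead match, TATTTAC on the opposite strand, lay 47 to 41 bases before the start used for Spdef. The Spdef window lies wholly inside the gene (chr17:27714446-27731003), so that start is not the gene's outer end. Nor is the start used for Slc26a4, whose gene spans chr12:31519814-31560055. No match was found in the windows of Agr2 and Fcgbp, no window of the 5 held the STAT6 or SPDEF letters, and no matches overlapped. Of 32851 RefSeq promoter windows of this length, 6.95% held the STAT6 letters, 13.5% a forkhead match, 6.04% the SPDEF letters and 13.6% TATAAA. A match describes letters in the window and is not evidence of binding.

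The values were log2 RMA intensities, and the number of arrays limits their precision. Eosinophilic mouse 7 had an array unlike the rest. Its values spread over genes with an SD of 0.758, against 1.38 to 1.98 on the other 11 arrays, and it correlated at 0.435 with the median of the others, against 0.903 to 0.983. Eosinophilic mouse 9 (SD 1.41, correlation 0.903) and neutrophilic mouse 23 (SD 1.38, correlation 0.907) were next lowest in both. An alternative fit left out mice 7, 9 and 23 together. Surfactant protein C (Sftpc), a defining transcript of lung alveoli, read 7.38 on mouse 7. It read 12.95 to 14.31 on the other 11 arrays, so the lung label was borne out there but not on mouse 7. Some genes dim in control mice read higher on mouse 7, such as Prol1 (3.10 to 3.51 in control, 6.16 on mouse 7). Gkn2 did so too (3.60 to 3.81 in control, 5.84 on mouse 7). A dim gene that lies above control on mouse 7 need not be a rise. Counts and calls against control are therefore given with all 12 arrays, as planned, and with the 11 arrays that leave out eosinophilic mouse 7. All limma tests shared 1 estimate of spread over the 4 groups, so the wide spread of the eosinophilic group also widened the errors of comparisons that did not include it. Adjusted p stands for Benjamini-Hochberg adjustment over the 19937 genes, with 0.05 as threshold. With 1 array for each mouse, the p-values rest on a spread that joins differences between mice with differences between arrays.

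With all 12 arrays, Clca1, Slc26a4, Muc5ac and Tff2 rose in mixed and in neutrophilic mice against control mice, 4 of 8 genes in each comparison. Over all genes tested, 0.326% were called higher in mixed mice and 0.662% in neutrophilic mice. In eosinophilic mice none of the 8 passed limma's test (0.0752% of all genes were called higher), although 5 of 8 had an unadjusted p below 0.05 in that direction, as 10.8% of all genes did. Without mouse 7, Muc5b and Agr2 joined in mixed and neutrophilic mice, 6 of 8 in each, and 5 genes rose in eosinophilic mice, namely Clca1, Slc26a4, Agr2, Muc5b and Muc5ac. The background shares called higher were then 0.451% for eosinophilic, 1.41% for mixed and 2.24% for neutrophilic mice. Spdef and Foxa3 passed in no comparison with control, with or without mouse 7. The median change of the 8 genes was 1.13 in eosinophilic (1.79 without mouse 7), 2.80 in mixed and 2.67 in neutrophilic mice on the log2 scale, beside medians over all genes of 0.0058 (0.012 without mouse 7), 0.0046 and 0.048. In whole lung, more cells of a type and more RNA per cell cannot be told apart.

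**Figure D1:**
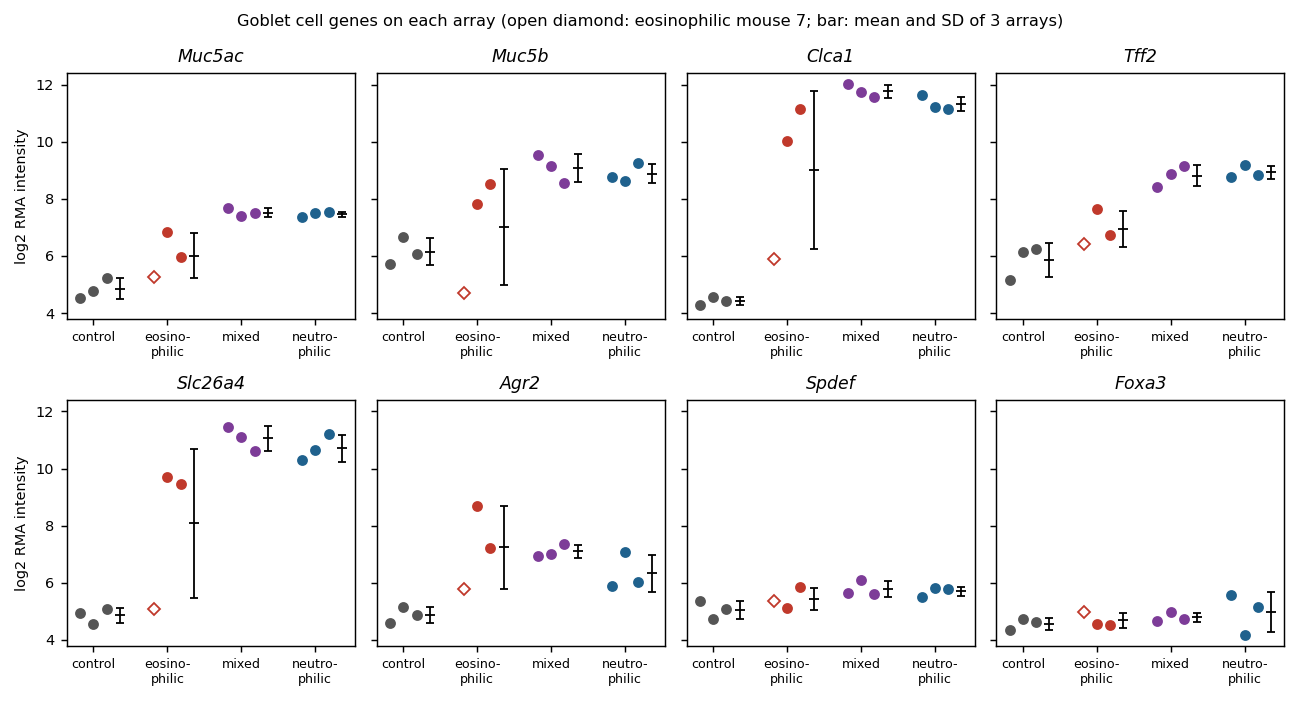
Log2 RMA intensity (y axis) of 8 goblet cell genes on each of 12 arrays, grouped by model (x axis), with the mean and SD of the 3 arrays of a group beside the points and eosinophilic mouse 7 as an open diamond. Clca1 lies between 4.27 and 4.55 in control mice and between 11.13 and 12.004 in mixed and neutrophilic mice, whereas Foxa3 stays between 4.19 and 5.56 on all arrays.

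Muc5ac, the inducible gel-forming mucin, read 4.52, 4.79 and 5.24 in control mice. It read 5.25, 6.83 and 5.96 in eosinophilic mice 7, 8 and 9, 7.67, 7.39 and 7.50 in mixed mice, and 7.37, 7.50 and 7.53 in neutrophilic mice. No array of the 3 models lay below a control array, and the mixed and neutrophilic arrays all lay above every eosinophilic array. The group means were 4.85 ± 0.36 (SD, n = 3) in control, 6.01 ± 0.79 (n = 3) in eosinophilic, 7.52 ± 0.14 (n = 3) in mixed and 7.47 ± 0.09 (n = 3) in neutrophilic mice. The rise over control was 6.36-fold in mixed mice (log2 2.67, SE 0.36, limma adjusted p = 0.00874) and 6.13-fold in neutrophilic mice (log2 2.62, SE 0.36, limma adjusted p = 0.00756). In eosinophilic mice the difference of 1.17 had a limma adjusted p of 0.109, and without mouse 7 it was 1.55 (SE 0.31, limma adjusted p = 0.0310). The mixed call was lost in limma without control mouse 1, control mouse 2, mixed mouse 15 or mixed mouse 17 (adjusted p = 0.0507 to 0.0748), and the neutrophilic call without control mouse 1 or 2 (adjusted p = 0.0592 and 0.0616).

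Muc5b, the mucin made in resting airways, read 5.72, 6.66 and 6.07 in control mice. The values were 4.70, 7.83 and 8.53 in eosinophilic mice 7, 8 and 9, 9.52, 9.16 and 8.54 in mixed mice, and 8.76, 8.62 and 9.27 in neutrophilic mice. Mouse 7 lay below all control mice, and the other 8 HDM-treated mice lay above all of them. Means were 6.15 ± 0.48 in control, 7.02 ± 2.04 in eosinophilic (8.18 without mouse 7), 9.07 ± 0.50 in mixed and 8.88 ± 0.34 in neutrophilic mice (SD, n = 3 each). With 12 arrays no limma comparison with control passed, at adjusted p = 0.398 for eosinophilic, 0.135 for mixed and 0.0841 for neutrophilic mice. Without mouse 7 the fit gave a rise of 2.03 in eosinophilic (limma adjusted p = 0.0217), 2.92 in mixed, or 7.59-fold (limma adjusted p = 0.00036), and 2.73 in neutrophilic mice, or 6.64-fold (limma adjusted p = 0.000451). Without eosinophilic mouse 8 instead, the neutrophilic difference also passed in limma (adjusted p = 0.0480), in a fit that called 1.36% of all genes higher.

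Clca1 had the largest changes among the 8 genes in each comparison with control. It read 4.27, 4.55 and 4.41 in control mice, 5.88, 10.01 and 11.15 in eosinophilic mice 7, 8 and 9, 12.004, 11.73 and 11.55 in mixed mice, and 11.62, 11.20 and 11.13 in neutrophilic mice. Every HDM-treated mouse, mouse 7 included, lay above every control mouse, although other genes dim in control also read higher on mouse 7. Means were 4.41 ± 0.14 in control, 9.02 ± 2.77 in eosinophilic (10.58 without mouse 7), 11.76 ± 0.23 in mixed and 11.32 ± 0.26 in neutrophilic mice (SD, n = 3 each). The rise was 163-fold in mixed mice (log2 7.35, SE 0.94, limma adjusted p = 0.00829) and 120-fold in neutrophilic mice (log2 6.91, SE 0.94, limma adjusted p = 0.00718). Control values of Clca1 lay below the median of every array (5.43 to 5.58), as did those of Slc26a4, Muc5ac and Agr2. Folds from so dim a level depend on where dim genes read and need not give the size of a rise. For eosinophilic mice the difference of 4.61 (SE 0.94) just missed the threshold (limma adjusted p = 0.0547). Without mouse 7 it was 6.17 (SE 0.33, limma adjusted p = 9.28e-07), and without mouse 8, when 17.8% of all genes were called higher in eosinophilic mice, it was 4.11 (limma adjusted p = 0.0109). The mixed call rested on control mouse 1, control mouse 2 and mixed mouse 15, without any of which the limma adjusted p was 0.0512 to 0.0531, and the neutrophilic call on control mouse 1 (adjusted p = 0.0524 without it).

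Tff2, the trefoil peptide, read 5.16, 6.14 and 6.24 in control mice. In eosinophilic mice 7, 8 and 9 it read 6.43, 7.66 and 6.74, in mixed mice 8.41, 8.85 and 9.16, and in neutrophilic mice 8.76, 9.17 and 8.84. The groups formed separate ranges, with control lowest, eosinophilic next, and mixed and neutrophilic overlapping at the top. Means were 5.85 ± 0.60 in control, 6.94 ± 0.64 in eosinophilic, 8.81 ± 0.38 in mixed and 8.92 ± 0.22 in neutrophilic mice (SD, n = 3 each). Tff2 rose 7.79-fold in mixed mice (log2 2.96, SE 0.39, limma adjusted p = 0.00829) and 8.44-fold in neutrophilic mice (log2 3.08, SE 0.39, limma adjusted p = 0.00437). The eosinophilic difference passed neither with mouse 7 (1.09, limma adjusted p = 0.126) nor without it (1.35, limma adjusted p = 0.105). The neutrophilic call held in limma with any single array left out, and the mixed call did not without control mouse 1, control mouse 2 or mixed mouse 17 (adjusted p = 0.0501 to 0.0529).

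Slc26a4, the anion exchanger, had the next largest changes. Control mice read 4.93, 4.57 and 5.07, and eosinophilic mice 7, 8 and 9 read 5.07, 9.71 and 9.46. Mixed mice read 11.46, 11.11 and 10.61 and neutrophilic mice 10.28, 10.64 and 11.20. Mouse 7 sat at the level of the highest control mouse, and every other HDM-treated mouse lay far above the controls. Means were 4.86 ± 0.26 in control, 8.08 ± 2.61 in eosinophilic (9.58 without mouse 7), 11.06 ± 0.43 in mixed and 10.71 ± 0.46 in neutrophilic mice (SD, n = 3 each). Slc26a4 rose 73.5-fold in mixed mice (log2 6.20, SE 0.91, limma adjusted p = 0.0137) and 57.6-fold in neutrophilic mice (log2 5.85, SE 0.91, limma adjusted p = 0.00977). The eosinophilic difference was 3.22 (SE 0.91, limma adjusted p = 0.0957), and 4.73 without mouse 7 (SE 0.33, limma adjusted p = 6.3e-06). Without eosinophilic mouse 8 it was 2.41, with a limma adjusted p of 0.0478, in the fit that called 17.8% of all genes higher. The mixed call was lost in limma without any single control or mixed mouse (adjusted p = 0.0581 to 0.0914), and the neutrophilic call without control mouse 1, control mouse 2 or neutrophilic mouse 25 (adjusted p = 0.0576 to 0.0729).

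Agr2, the mucin disulfide isomerase, was ordered differently from the genes above. It read 4.59, 5.17 and 4.88 in control mice, 5.80, 8.70 and 7.24 in eosinophilic mice 7, 8 and 9, 6.95, 7.01 and 7.36 in mixed mice, and 5.90, 7.07 and 6.01 in neutrophilic mice. All HDM-treated mice lay above all controls, the highest single value was that of eosinophilic mouse 8, and the 3 models overlapped. Means were 4.88 ± 0.29 in control, 7.25 ± 1.45 in eosinophilic (7.97 without mouse 7), 7.11 ± 0.22 in mixed and 6.33 ± 0.65 in neutrophilic mice (SD, n = 3 each). With 12 arrays the limma differences from control were 2.37 (adjusted p = 0.0723), 2.23 (adjusted p = 0.143) and 1.45 (adjusted p = 0.244) in that order. Without mouse 7 they passed in eosinophilic (3.09, SE 0.43, limma adjusted p = 0.00515), mixed (2.23, limma adjusted p = 0.00685) and neutrophilic mice (1.45 or 2.73-fold, limma adjusted p = 0.0314). Without eosinophilic mouse 8 instead, the eosinophilic difference was 1.64 (limma adjusted p = 0.0155, 17.8% of all genes called higher) and the mixed one passed as well (adjusted p = 0.0217, 0.762% of all genes).

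The transcription factors had small differences. Both were dim, Spdef at 4.73 to 6.12 and Foxa3 at 4.19 to 5.56, beside array medians of 5.43 to 5.58. A small difference at that level does not show that a gene was unchanged. Spdef read 5.36, 4.73 and 5.09 in control, 5.37, 5.11 and 5.84 in eosinophilic, 5.63, 6.12 and 5.61 in mixed and 5.52, 5.81 and 5.79 in neutrophilic mice. Every mixed and neutrophilic value lay above every control value, while the eosinophilic values overlapped with control. The differences from control were 0.38 (limma adjusted p = 0.349) in eosinophilic, 0.73 (limma adjusted p = 0.48) in mixed and 0.65 (limma adjusted p = 0.324) in neutrophilic mice. Without mouse 7 the limma adjusted p was 0.501, 0.233 and 0.177 in the same order. Foxa3 read 4.34, 4.74 and 4.63 in control, 4.99, 4.56 and 4.52 in eosinophilic, 4.67, 4.98 and 4.73 in mixed and 5.56, 4.19 and 5.16 in neutrophilic mice, with overlap among all groups. Its neutrophilic values spread around those of control (SD 0.70 against 0.20), and its differences of 0.12, 0.23 and 0.40 from control had limma adjusted p-values of 0.796, 0.9999 and 0.646. Foxa3 was the member that a filter on dim genes, log2 5 or more on at least 3 arrays, would have removed.

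**Figure D2:**
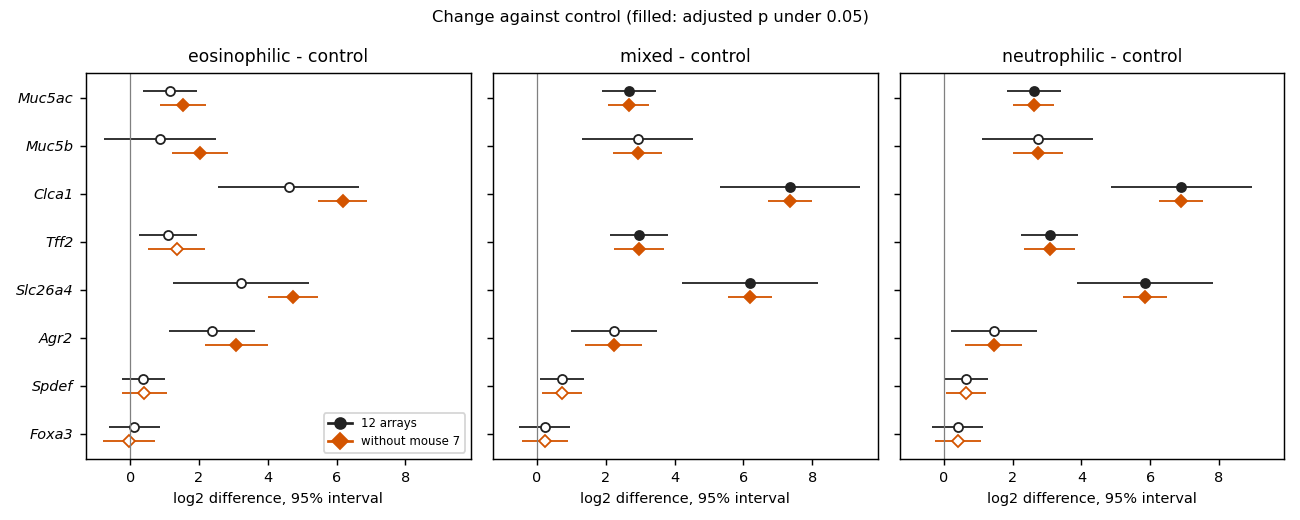
Log2 difference from control with its 95% interval (x axis) for 8 goblet cell genes (y axis) in each of the 3 models, from limma with all 12 arrays (circles) and without eosinophilic mouse 7 (diamonds), filled where the adjusted p is under 0.05. In mixed mice Clca1 is at 7.35 and Slc26a4 at 6.20 in both fits, and the intervals are narrower without mouse 7.

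Against control, the mean of the 3 models was higher for 5 of 8 genes with 12 arrays, beside 0.607% of all genes called higher. These were Clca1 (78.2-fold, limma adjusted p = 0.00329), Slc26a4 (34.1-fold, adjusted p = 0.0073), Tff2 (5.20-fold, adjusted p = 0.00539), Muc5ac (4.44-fold, adjusted p = 0.00633) and Agr2 (4.04-fold, adjusted p = 0.0439). Muc5b was 4.51-fold higher with a limma adjusted p of 0.0786, and passed without mouse 7 (log2 2.56, adjusted p = 0.00018), when 6 of 8 were called beside 1.87% of all genes. Without control mouse 1 only Clca1 was left, when 9 of 19937 genes were called higher. Without control mouse 2 Clca1 and Tff2 were left, 2 of 8, beside 8 of 19937 genes. The Agr2 call was lost in limma in 9 of the 12 fits that left out 1 array. The moderated F test for any difference among the 4 groups passed for Tff2, Clca1, Muc5ac and Slc26a4 (limma adjusted p = 0.0109, 0.0124, 0.0124 and 0.0203), beside 0.883% of all genes. Without mouse 7, Clca1 and Slc26a4 had the smallest and second smallest p of the 19937 genes in that F test (adjusted p = 5.23e-08 and 3.01e-07), and 6 of 8 members passed beside 4.6% of all genes.

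A separate look at overlap needs no model of the spread. All 3 mixed values lay above all 3 control values for 7 of 8 genes, every gene except Foxa3, as was so for 9.16% of all genes, and the same 7 of 8 genes were separated in neutrophilic mice, beside 12.6% of all genes. In eosinophilic mice 4 of 8 were separated from control, namely Muc5ac, Clca1, Tff2 and Agr2, beside 11.1% of all genes, and 6 of 8 without mouse 7, beside 14.6%. All 9 HDM-treated mice lay above all 3 controls for those 4 genes, beside 1.82% of all genes. For mouse 7 such a place is of limited meaning, since other genes dim in control read higher on its array. An exact permutation test of 3 against 3 mice cannot give a p below 0.1.

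Between models, no member passed limma's test in either direction, with or without mouse 7. Against eosinophilic mice, mixed mice had higher means for Slc26a4 (2.98, 95% interval 1.01 to 4.95), Clca1 (2.75, 0.70 to 4.79), Muc5b (2.06, 0.44 to 3.67), Tff2 (1.87, 1.03 to 2.71) and Muc5ac (1.50, 0.72 to 2.29), with limma adjusted p of 0.193 for Tff2 and 0.295 for the others. These 5 of 8 genes had an unadjusted p below 0.05, as had 9.84% of all genes in that direction, while 0.00502% of all genes were called higher and 0% lower after adjustment. Without mouse 7 the differences shrank to 1.47, 1.18, 0.90, 1.61 and 1.12 in the same order, and the limma adjusted p was 0.271 to 0.674, with 0.0301% of all genes called higher and 0.0201% lower. Agr2 lay the other way, at -0.14 with 12 arrays (-1.39 to 1.11) and -0.86 without mouse 7 (-1.79 to 0.07). All mixed values lay above all eosinophilic values for those 5 of 8 genes, beside 6.91% of all genes. Leaving out eosinophilic mouse 8, which kept mouse 7 in, brought all 5 past the threshold in limma, in a fit that called 17.1% of all genes higher.

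Neutrophilic mice gave a like set of differences from eosinophilic mice, of 2.63 for Slc26a4, 2.30 for Clca1, 1.98 for Tff2, 1.86 for Muc5b and 1.45 for Muc5ac (limma adjusted p = 0.107 to 0.475). Here too 5 of 8 had an unadjusted p below 0.05, beside 6.42% of all genes, while 0.11% of all genes were called higher and 0.00502% lower after adjustment (0.14% and 0.0502% without mouse 7). Both comparisons use the same eosinophilic arrays. Tff2 came nearest to the threshold, with limma adjusted p of 0.107 with and 0.134 without mouse 7 (difference 1.73). Without mouse 7, Agr2 was lower in neutrophilic than in eosinophilic mice by a difference of -1.64 (95% interval -2.57 to -0.71, limma adjusted p = 0.251). Without eosinophilic mouse 8 instead, Muc5ac, Slc26a4 and Tff2 passed, while 8.47% of all genes were called higher.

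Neutrophilic and mixed mice, which differed in dose on the same schedule, had close means for most members. The difference, neutrophilic minus mixed, was -0.05 for Muc5ac (95% interval -0.84 to 0.73), -0.19 for Muc5b (-1.81 to 1.42), 0.11 for Tff2 (-0.72 to 0.95), -0.35 for Slc26a4 (-2.32 to 1.62), -0.44 for Clca1 (-2.48 to 1.60) and -0.78 for Agr2 (-2.03 to 0.47). All limma adjusted p-values were 0.9999, no member had an unadjusted p below 0.05 (0.552% of all genes had one in the higher and 2.55% in the lower direction), and 0% of all genes were called. Without mouse 7 the interval was -0.65 to 0.54 for Muc5ac and -1.08 to 0.20 for Clca1. Both intervals included 0, and true differences up to those bounds remain possible. Ordered by mean over 12 arrays, control was lowest for each of the 8 genes, with Foxa3 as the exception when mouse 7 was left out (4.54 in eosinophilic and 4.57 in control mice). Neutrophilic and mixed mice held the upper places for all except Agr2, for which eosinophilic mice were highest. Between neutrophilic and mixed mice the order of the means did not go beyond their spread.

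**Figure D3:**
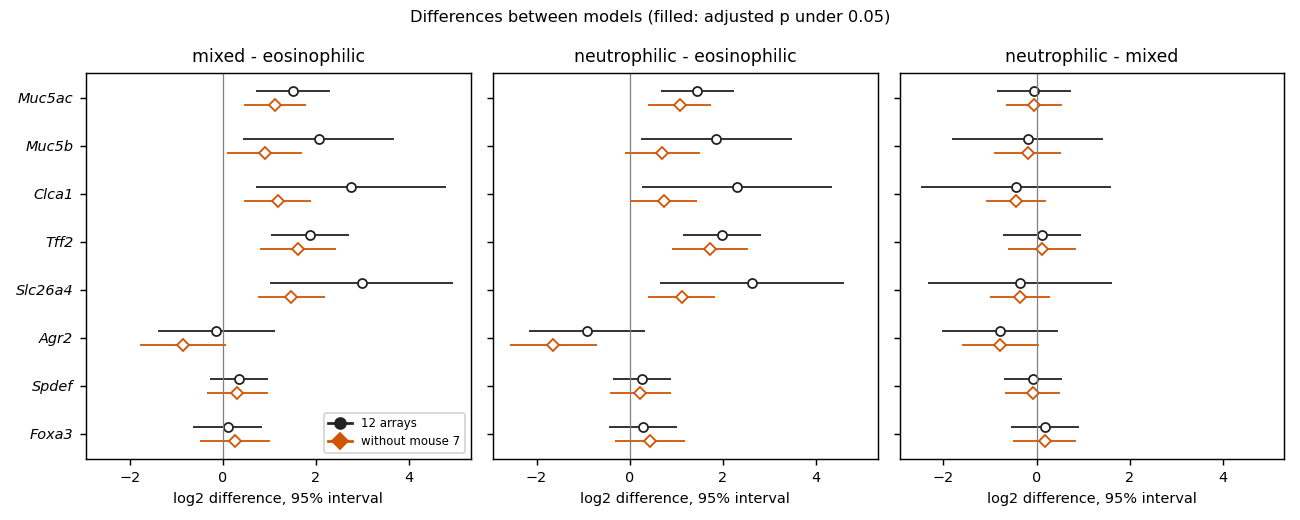
Log2 difference between models with its 95% interval (x axis) for 8 goblet cell genes (y axis), from limma with all 12 arrays (circles) and without eosinophilic mouse 7 (diamonds). No symbol is filled, since no adjusted p was under 0.05, and the neutrophilic minus mixed differences lie between -0.78 for Agr2 and 0.18 for Foxa3.

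Other gel-forming mucins and trefoil peptides passed no test. Muc2, Muc6, Muc19, Tff1 and Tff3, which belong mainly to gut, stomach or glands, read 3.66 to 6.26 on all 12 arrays, and none of the 5 passed limma's test against control or had an unadjusted p below 0.05. Over all genes, 10.8% had an unadjusted p below 0.05 in the higher and 17.4% in the lower direction in eosinophilic, 2.89% and 5.05% in mixed and 3.96% and 10.7% in neutrophilic mice, against which the unadjusted counts of this and the following lists are to be read. After adjustment, 84, 29 and 289 of 19937 genes were called lower in eosinophilic, mixed and neutrophilic mice with 12 arrays. Without mouse 7 these were 176, 314 and 1442, beside 90, 282 and 447 called higher. The falls in the following lists are to be read against these counts. The median differences of the 5 genes were 0.23, 0.14 and 0.39 in eosinophilic, mixed and neutrophilic mice. Of the other Clca genes, paralogs of Clca1, 6 of 7 were measured and none passed with 12 arrays, while 2, 1 and 2 had an unadjusted p below 0.05 in the 3 models. Without mouse 7, Clca3a2 rose in neutrophilic mice (1.201, limma adjusted p = 0.00613). Genes of this family are alike in sequence, and probe sets of Clca1 and its paralogs may share signal.

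Some secreted proteins found in mucus beside mucins rose as well. Of 15 measured, 1 rose in eosinophilic, 2 in mixed and 2 in neutrophilic mice with 12 arrays, and 4, 6 and 7 without mouse 7, while none fell. Chil4, a chitinase-like protein of type 2 inflammation, rose in all 3 models (2.62, 3.88 and 2.32, limma adjusted p = 0.0462, 0.00829 and 0.0367). With single arrays left out, its eosinophilic call held only without eosinophilic mouse 7 or 8, its neutrophilic call only without eosinophilic mouse 7, 8 or 9, and its mixed call was lost without control mouse 1, control mouse 2 or mixed mouse 15. Reg3g, an antibacterial lectin, rose in mixed and neutrophilic mice (4.18 and 3.31, limma adjusted p = 0.016 and 0.0225), and each call was lost without any single mouse of the groups compared. Without mouse 7, Pigr, the receptor that carries IgA into secretions, rose by 2.22, 3.23 and 3.26 (limma adjusted p = 0.00962, 7.64e-05 and 7.68e-05). It read 6.89, 7.30 and 6.84 in control, 5.05, 8.93 and 9.53 in eosinophilic, 10.26, 9.99 and 10.47 in mixed and 9.62, 10.61 and 10.58 in neutrophilic mice. Bpifb1, a secreted protein of airway epithelium and glands, rose by 2.23, 3.04 and 2.55 in the same fit (limma adjusted p = 0.0147, 0.0003 and 0.000653). For Pigr and Bpifb1, as for Muc5b, mouse 7 read below all control mice.

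Most genes of mucin glycosylation, folding, granule release and ion transport did not pass. Of 27 measured enzymes of mucin O-glycosylation none passed in limma with 12 arrays (unadjusted p below 0.05 for 2 higher and 3 lower in eosinophilic, 2 and 1 in mixed, 4 and 2 in neutrophilic mice). Without mouse 7, B4galt5 (1.28 and 1.62), the fucosyltransferase Fut2 (1.204 and 1.08) and the sialyltransferase St3gal1 (1.09 and 1.17) rose in mixed and neutrophilic mice (limma adjusted p = 0.0033 to 0.0485), and C1galt1 (-1.63) and St6galnac2 (-1.12) fell in neutrophilic mice (adjusted p = 0.0313 and 0.0256). Of 19 genes of secretory load and protein folding none passed with 12 arrays, with 1, 0 and 1 higher and 4, 1 and 3 lower at an unadjusted p below 0.05 in the 3 models, so the 4 lower in eosinophilic mice stood beside 17.4% of all genes. Without mouse 7, Creb3l1, a transcription factor of secretory cells, rose in neutrophilic mice (1.41, limma adjusted p = 0.0187) and the chaperone partner Dnajc10 fell (-0.96, limma adjusted p = 0.0463).

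Of 17 measured genes of granule exocytosis, P2ry2, the purinergic receptor through which ATP triggers mucin release, rose in neutrophilic mice with 12 arrays (2.40, limma adjusted p = 0.0456), a call that held in 4 of the 12 fits that left out 1 array, those without eosinophilic mouse 7, 8 or 9 or neutrophilic mouse 23. Its mixed difference was 2.75 (limma adjusted p = 0.0513) and passed without mouse 7 (adjusted p = 0.011). In that fit Unc13b (-1.08) and Sytl2 (-1.01), both factors of vesicle docking or priming, fell in neutrophilic mice (limma adjusted p = 0.0191 and 0.015). None of 14 genes of mucus hydration and ion transport passed with 12 arrays, although 3, 1 and 0 were higher and 7, 1 and 3 lower at an unadjusted p below 0.05, beside 17.4% of all genes lower in eosinophilic and 10.7% in neutrophilic mice. Without mouse 7, Scnn1b, a subunit of the epithelial sodium channel, fell in mixed (-1.13, limma adjusted p = 0.0474) and neutrophilic mice (-1.09, adjusted p = 0.0273), and Scnn1g (-1.83, adjusted p = 0.00999) and the chloride channel Cftr (-1.09, adjusted p = 0.0338) fell in neutrophilic mice. None of the 14 rose in either fit, in contrast to Slc26a4.

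Of 27 measured regulators of goblet cells, Il1b, an inflammatory cytokine, rose with 12 arrays, in neutrophilic mice (3.28, limma adjusted p = 0.0498), a call that held with 1 array left out only without eosinophilic mouse 7, eosinophilic mouse 8 or neutrophilic mouse 23. Without mouse 7 it also rose in mixed mice (3.43, limma adjusted p = 0.0107). The epithelial alarmin Il33 read 8.20, 8.31 and 7.31 in control, 5.67, 10.60 and 9.61 in eosinophilic, 11.40, 10.85 and 10.54 in mixed and 9.90, 9.87 and 10.17 in neutrophilic mice. Its rises of 2.17, 2.99 and 2.04 passed only without mouse 7 (limma adjusted p = 0.0186, 0.00036 and 0.00275), as did those of Foxm1 in eosinophilic mice (1.71, adjusted p = 0.0259) and the fall of Postn in neutrophilic mice (-0.93, adjusted p = 0.0409).

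**Figure D4:**
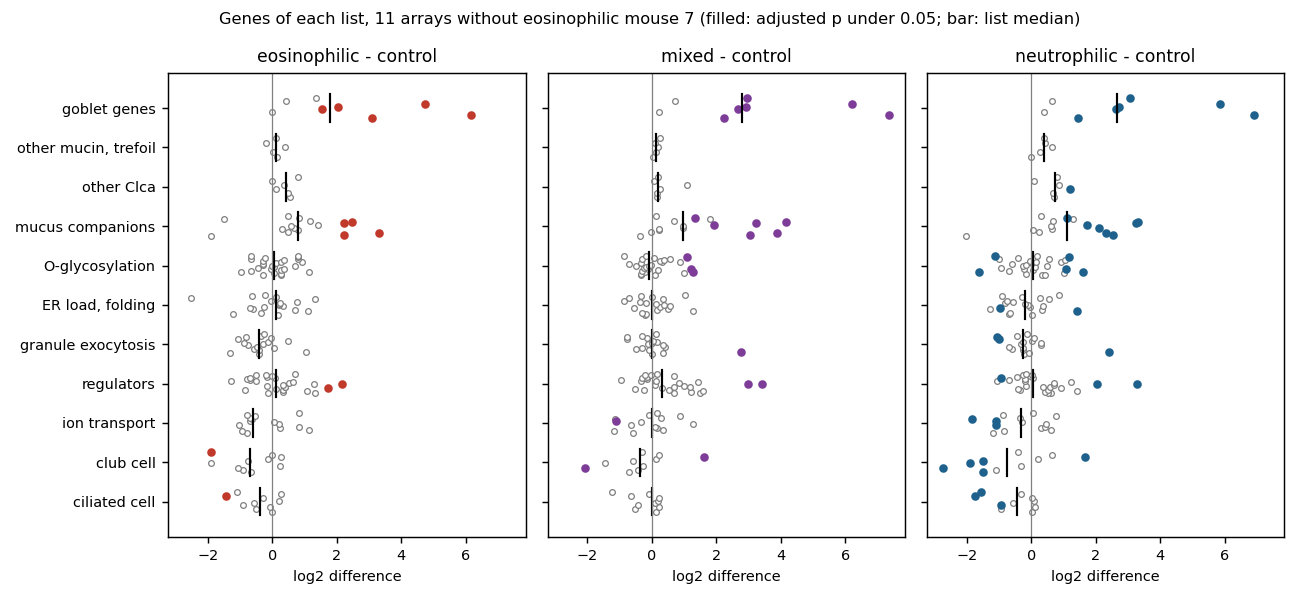
Log2 difference from control (x axis) of each gene of the goblet list and of 10 other lists (y axis) in the 3 models, from limma without eosinophilic mouse 7, filled where the adjusted p is under 0.05 and with a bar at the list median. The goblet genes have medians of 1.79, 2.80 and 2.67, and the other gel-forming mucins and trefoil peptides have medians of 0.11, 0.14 and 0.39.

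Markers of other airway cells were measured beside the goblet genes. Of 10 club cell markers, the secretory cells from which goblet cells arise in mouse airways, 1 fell in each model with 12 arrays and none rose. Scgb3a2 fell in eosinophilic mice (-2.06, limma adjusted p = 0.0347) and Cckar in mixed (-2.06, adjusted p = 0.04) and neutrophilic mice (-2.73, adjusted p = 0.00813). The Scgb3a2 call and the mixed Cckar call each held in 3 of the 12 fits that left out 1 array, those without eosinophilic mouse 7, eosinophilic mouse 8 or neutrophilic mouse 23, and the neutrophilic Cckar call was lost without control mouse 1 or 2. Without mouse 7, 1 marker fell in eosinophilic, 1 fell and 1 rose in mixed, and 4 fell and 1 rose in neutrophilic mice. Of all 19937 genes, that fit called 1442 lower and 447 higher in neutrophilic mice. In that fit Nupr1, a stress-induced gene, rose in mixed (1.63, limma adjusted p = 0.0144) and neutrophilic mice (1.68, adjusted p = 0.00609), and Cyp2f2, Aldh1a1, Gsta3 and Cckar fell in neutrophilic mice (-1.89, -1.51, -1.49 and -2.73). Cckar read 8.37, 8.78 and 8.24 in control, 6.005, 7.44 and 7.35 in eosinophilic, 6.88, 6.18 and 6.13 in mixed and 5.50, 5.71 and 5.98 in neutrophilic mice. The defining club cell transcript Scgb1a1 read 12.28, 12.74 and 12.91 in control and 7.15, 12.55 and 12.72 in eosinophilic mice 7, 8 and 9. It read 13.01, 12.73 and 12.86 in mixed and 13.25, 13.38 and 13.28 in neutrophilic mice. Every neutrophilic Scgb1a1 value thus lay above every control value, unlike the mean of the list, though Scgb1a1 was not called in either fit. The mean of the 10 club markers was 9.99 to 10.09 in control, 9.12 to 9.57 in eosinophilic (5.63 on mouse 7), 9.48 to 9.89 in mixed and 9.20 to 9.57 in neutrophilic mice, so it lay lower in each model. Means of the 9 alveolar type 2 markers were 11.12 to 11.27 in control and 10.33 to 10.98 in eosinophilic mice without mouse 7. They were 10.62 to 11.22 in mixed and 10.18 to 11.24 in neutrophilic mice. Over the 13370 genes at log2 5 or more on 3 arrays, the median change with 12 arrays was -0.46, -0.083 and -0.196 in the 3 models. Whether the club cell shift went beyond this was not tested. Of 10 ciliated cell markers, Sntn fell in eosinophilic (-1.66, limma adjusted p = 0.0462) and neutrophilic mice (-1.74, adjusted p = 0.0114) with 12 arrays, and none rose. With 1 array left out, the eosinophilic Sntn call held only without eosinophilic mouse 7 or 8, and the neutrophilic one was lost without control mouse 1, control mouse 2 or neutrophilic mouse 25. Without mouse 7, Sntn fell in eosinophilic mice, and Sntn, Dnah5 (-0.95, limma adjusted p = 0.0148) and Tppp3 (-1.55, adjusted p = 0.0455) fell in neutrophilic mice. None of 10 general epithelial markers passed with 12 arrays (unadjusted p below 0.05 for 1 lower in eosinophilic, 3 higher in mixed and 1 higher in neutrophilic mice), and their mean was 7.55 to 8.09 in control, 7.67 to 8.004 in eosinophilic (5.32 on mouse 7), 7.83 to 8.64 in mixed and 7.59 to 8.69 in neutrophilic mice. Without mouse 7, the junction gene Cldn4 of that list rose in mixed (1.81, limma adjusted p = 0.0456) and neutrophilic mice (2.33, adjusted p = 0.00622). The part of these shifts in the goblet genes was not tested.

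Tissue that dissection can bring along was checked by lists for cartilage of large airways (12 genes), submucosal gland (10), stomach and gut (9 measured), oesophagus (8), basal cells (6) and alveolar type 2 cells (9). With 12 arrays Sprr1a of the oesophagus list, which is also a stress-induced epithelial gene, rose in mixed and neutrophilic mice (4.11 and 4.34, limma adjusted p = 0.000221 and 0.000254), and no other gene of these 6 lists passed in the comparison of a single model with control. Both Sprr1a calls held with any single array left out. For the mean of the 3 models Etv5, a factor of alveolar type 2 cells, fell (-1.89, limma adjusted p = 0.0226). Without mouse 7, Sprr1a also rose in eosinophilic mice (1.65, limma adjusted p = 0.0427), Bpifb1 and Pigr of the gland list rose in all 3 models as given above, and Etv5 of the alveolar list fell in mixed and neutrophilic mice (-2.02 and -1.84, limma adjusted p = 0.00717 and 0.00614). Mean cartilage markers were 4.74 to 5.06 in control, 4.82 to 5.69 in eosinophilic (up to 5.47 without mouse 7), 4.91 to 5.10 in mixed and 5.09 to 5.37 in neutrophilic mice. Mean stomach and gut markers were 4.004 to 4.32 in control, 4.15 to 5.01 in eosinophilic (up to 4.66 without mouse 7), 4.21 to 4.39 in mixed and 4.34 to 4.53 in neutrophilic mice. Markers of inflammatory cells differed between the groups as well. Of 12 neutrophil markers 0 rose in eosinophilic (3 at an unadjusted p below 0.05), 1 in mixed (Il1r2) and 5 in neutrophilic mice with limma on 12 arrays, and 0, 8 and 9 without mouse 7. Each of these 12-array calls was lost in 3 to 9 of the fits that left out 1 array. None of 9 eosinophil markers passed with 12 arrays (2, 2 and 1 at an unadjusted p below 0.05), and without mouse 7 only Cd300lf passed, in neutrophilic mice (1.98, limma adjusted p = 0.0254). The eosinophil granule transcript Epx differed by 1.10 in eosinophilic mice (limma adjusted p = 0.0892), so the eosinophil label was not borne out by a call at this number of arrays.

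Across arrays the members followed each other to unequal degrees. As a description over the 12 arrays, which share group structure and RMA, Pearson's correlation of each gene with the mean of the other 7 was 0.977 for Clca1, 0.977 for Slc26a4, 0.956 for Muc5ac, 0.911 for Tff2, 0.882 for Muc5b, 0.666 for Spdef, 0.598 for Agr2 and 0.192 for Foxa3. Without mouse 7 that of Muc5b was 0.956, and the others moved by less than 0.1. The genes outside the list most like the mean of the members over 12 arrays were the chemokine Cxcl3 (0.963), the acute-phase protein Saa3 (0.962), the chemokines Ccl17 (0.956) and Ccl11 (0.954) and the metallothionein Mt1 (0.953), of which Cxcl3, Saa3 and Ccl17, 3 of 5, stayed among the top 5 without mouse 7. Muc5b was most like Bpifb1 (0.987) and Pigr (0.971), Muc5ac most like Mt1 (0.991), Clca1 most like Retnla (0.959) and Slc26a4 most like Ccl17 (0.979). Without mouse 7 Clca1 was instead most like Serpina3n (0.978) and Slc26a4 most like Saa3 (0.989), Pigr was not among the 3 genes nearest to Muc5b, and Bpifb1 (0.984) and Mt1 (0.993) stayed nearest to Muc5b and Muc5ac. Agr2 was most like Rnase2a (0.943) and Arg1 (0.933), neither of which was among the 3 nearest genes of Clca1, Slc26a4, Muc5ac, Muc5b or Tff2. The nearest genes of Spdef and Foxa3 were not sought.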

How the data were processed

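The authors deposited 1 table of log2 intensity per probe set. Per the submitters' processing notes, Affymetrix Expression Console and RMA were used. RMA adjusts for background, equalises the distributions of the arrays and combines the probes of a set. Software versions were not given in these sources, and the range of the values was taken to mean a log2 base. RNA of snap frozen lung (300 ng) was labelled with biotin, per the labels' protocols. Of 34760 probe sets, 21640 carried a single gene symbol in the platform annotation and 1321 carried several. Where a gene had several (954 genes), its brightest on average was taken, which gave 19937 genes.

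Tests used limma 3.58.1 in R 4.3.3 (lmFit, eBayes without trend) with group means, two-sided, and Benjamini-Hochberg adjustment over all genes in each comparison. No covariate was used, since the labels name no batch, slide or date. No replicate numbers were shared between groups. The fit was tested on simulated data. Alternatives were a minimum of log2 5 on 3 arrays (13370 genes kept), median centring, quantile normalization, trend and robust eBayes, averaging a gene's probe sets, fits restricted to the compared groups, each array left out, the arrays of mice 7, 9 and 23 left out together, and array SD as a covariate.

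The members, lists and tests were chosen with earlier results of these data known. The counts of the other lists without mouse 7, and their calls with each array left out, were added after seeing the data. All 9 members were named. Of other lists those past the threshold were named, at most 4 per list and comparison, or else the 2 with the smallest p could be. The 5 genes with the highest correlation with the members, predicted genes left out, were named too. Muc19, Epx, Scgb1a1, Sftpc, Prol1 and Gkn2 were named after their values were seen, and so were the nearest genes of single members. Promoters were read from a RefSeq table of GRCm38.p6.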

Additional observations from a re-analysis of the deposited data

Results flagged for a closer look

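Fcgbp could be read only from probe sets annotated with other genes as well, and those signals stood outside the comparisons. The probe set annotated 9530053A07Rik and Fcgbp read 4.45, 4.40 and 4.68 in control, 4.49, 4.85 and 5.89 in eosinophilic, 5.24, 5.84 and 5.48 in mixed and 6.02, 5.01 and 5.30 in neutrophilic mice. Its mean was above control by 1.02 in mixed and 0.94 in neutrophilic mice on the log2 scale, without overlap. A probe set annotated Gm31005, Rpl41 and Fcgbp was above control by 0.37 in neutrophilic mice, at 10.92, 10.98 and 10.999 against 10.54, 10.53 and 10.71. The other probe set with that annotation overlapped with control, at 12.52, 13.18 and 12.56 in neutrophilic against 12.27, 12.45 and 12.70 in control mice. These differences drew attention because, on both probe sets named first, data outside the tests lay above all control mice. They were not tested and cannot be assigned to Fcgbp alone. The first probe set is also annotated with 9530053A07Rik, and the others with Gm31005 and with Rpl41, which encodes a ribosomal protein.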

How the results depend on the processing

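No paired analysis was possible because the groups share no replicate numbers. The counts of the 8 genes called against control ranged, over the fits that left out 1 array each, from 0 to 5 for eosinophilic, 0 to 6 for mixed, 1 to 6 for neutrophilic mice and 1 to 6 for the mean of the 3 models. Of all 19937 genes, 0 to 3558, 5 to 282, 9 to 447 and 8 to 430 were called higher in the same order. The member counts ranged from 0 to 5 for mixed against eosinophilic mice, 0 to 3 for neutrophilic against eosinophilic mice, 0 to 0 for neutrophilic against mixed mice and 0 to 6 for the F test. Of all genes, 0 to 3412, 0 to 1688 and 0 to 0 were called higher between models, and 8 to 5237 passed the F test. For eosinophilic mice against control the count of 0 became 1 with the filter on dim genes, which called 27 of 13370 genes higher. It became 2 with trend and robust eBayes and 4 with array SD as a covariate. Those fits called 48 and 233 of 19937 genes higher, against 15 in the main fit. Without mice 7, 9 and 23 the eosinophilic group is mouse 8 alone, assumed to vary like the other groups. In that fit Clca1 differed by 1.75 for mixed minus eosinophilic mice and Agr2 by -2.16 for neutrophilic minus eosinophilic mice. With array SD 1 of the 8 genes, Tff2, was higher in neutrophilic than in eosinophilic mice (1.76), beside 80 of 19937 genes. No difference that changed sign was called in any fit. With 1 array left out, Foxa3 ranged from -0.026 to 0.21 for eosinophilic minus control, from -0.014 to 0.67 for neutrophilic minus eosinophilic and from -0.12 to 0.57 for neutrophilic minus mixed mice. Agr2 ranged from -0.86 to 0.59 for mixed minus eosinophilic mice. For neutrophilic minus mixed mice the ranges were -0.12 to 0.022 for Muc5ac, -0.46 to 0.030 for Muc5b, -0.084 to 0.29 for Tff2 and -0.17 to 0.086 for Spdef. Foxa3 for eosinophilic minus control was -0.32 with quantile normalization, -0.0070 without mice 7, 9 and 23 and -0.24 with array SD. Without mice 7, 9 and 23, neutrophilic minus mixed was -0.12 for Foxa3 and 0.013 for Spdef. With array SD it was 0.10 for Muc5ac, 0.15 for Muc5b and 0.15 for Slc26a4, and with quantile normalization 0.18 for Muc5ac. Counts over all genes moved as well, from 99 to between 0 and 8264 for eosinophilic, from 94 to between 6 and 1859 for mixed, from 421 to between 17 and 3188 for neutrophilic mice, from 527 to between 16 and 2731 for the mean of the models, and from 176 to between 8 and 5237 for the F test. Between models they moved from 1 to between 0 and 5979, from 23 to between 0 and 2777, and from 0 to between 0 and 53. The causes were not tested. Fits of only the groups compared gave no value for the mean of the models and for the F test.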
